A study of Mus musculus with 6 samples.

Results

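Translation initiation factors are the proteins that bring the first transfer RNA, the messenger RNA and the ribosomal subunits together at a start codon. Their genes were taken here as the mouse symbols that begin with Eif1 to Eif6, without the kinases of eIF2, whose symbols begin with Eif2ak. After the counted RefSeq transcripts were matched to gene symbols, 52 of 23896 genes met this rule, and the transcript with the highest mean count stood for each gene. Another 12 symbols of the rule, 11 of pseudogenes and 1 of a noncoding RNA, had no counted transcript and were not analysed here. The libraries are stranded, poly(A)-selected mRNA-seq of MEL cells, an erythroleukemia line of the mouse that is held at the proerythroblast stage. Cells without DMSO (day 0) were compared with cells kept in 2% DMSO, which induces erythroid differentiation, for 2 days (day 2) and 4 days (day 4). Each day had 2 biological replicates, which makes 6 libraries of a single cell line, and among them none comes from cells kept without DMSO to day 2 or day 4, so DMSO and time in culture cannot be told apart.

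Initiation runs in steps, and the factors are named by the step they serve. eIF2 carries the initiator transfer RNA and GTP to the small ribosomal subunit, and eIF2B reloads eIF2 with GTP for the next round. eIF1 and eIF1A keep the small subunit in a form that scans the messenger RNA, and eIF3 is the large scaffold that holds these factors on it. The eIF4 group finds the cap of the messenger RNA (eIF4E), unwinds its leader (eIF4A, with eIF4B and eIF4H) and ties both to eIF3 (eIF4G), while the 4E-binding proteins (4E-BPs) hold eIF4E away from eIF4G until mTORC1 phosphorylates them. In erythroid cells this machinery is known for its link to heme, because a heme-regulated kinase phosphorylates the alpha subunit of eIF2 when heme is short.

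Counts on transcripts summed to between 35294930 and 53899476 per library. Levels are given as CPM, the count relative to the TMM-scaled library size, and changes as log2 fold changes with their standard error (SE) from edgeR's quasi-likelihood test over all 6 libraries. A gene was called when its Benjamini-Hochberg adjusted p over all 18351 tested transcripts was below 0.05. The replicates of day 0 lay farthest apart, with a chi-square per degree of freedom of 60.7, against 10.8 at day 2 and 17.0 at day 4. The 9 erythroid markers, among them the globins Hba-a1 and Hbb-bs, summed to 756 and 813 CPM at day 0, 4029 and 4833 CPM at day 2, and 17054 and 19087 CPM at day 4. For day 4 against day 0, 8 of the 9 were called higher. Klf1, of an erythroid transcription factor, was called lower (-0.54, SE 0.18, edgeR adjusted p = 0.0188). It was at 192 and 309 CPM at day 0 and 173 and 171 CPM at day 4, so the fall was mainly against day 0 replicate 2. The 6 proliferation markers were all called lower for day 4 against day 0, and their sums were 3999 and 4110 CPM at day 0, 3725 and 3640 CPM at day 2, and 1891 and 2024 CPM at day 4. Markers of lymphoid cells, granulocytes and monocytes, and fibroblasts summed to at most 2.82 CPM in any library, and those of mast cells to 3.36 and 3.79 CPM at day 0 and to at most 0.0958 CPM later. The 3 megakaryocyte markers summed to 268 and 271 CPM at day 0, 211 and 233 CPM at day 2, and 543 and 617 CPM at day 4. Among them Itga2b, at 531 and 606 CPM at day 4, and Gp9 were called higher for day 4 against day 0, while Pf4 went from 57.4 and 42.7 CPM to 10.2 and 8.93 CPM and was called lower. The part of proliferation, and of these other markers, in the changes below was not tested. In these bulk libraries, fewer cells that express a gene and less of its RNA per cell cannot be told apart. A CPM is relative to the scaled transcript counts of its library and is not an amount per cell.

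The transcripts that stood for the initiation factor genes, 1 per gene, took a smaller share of the summed transcript counts with each step. They made up 1.24% of this sum in both libraries of day 0, 0.912% and 0.893% at day 2, and 0.783% and 0.733% at day 4. The sum covers all 32654 counted transcripts, and a gene can have several with nearly the same counts, such as the 9 of Eif5a. Other transcripts of the 52 genes are in the sum but not in the share, so it is not a share of reads. Of the 52 genes, 50 could be tested, while Eif4e1b and Eif4e3, which encode relatives of the cap-binding protein eIF4E, had 0 counts in each of the 6 libraries. A count of 0 allows up to 3 counts in a library, and this limit covers counting error only. Eif3j1 and Eif3j2, 2 genes of the loosely bound eIF3 subunit j, had the same count in each library. They form 1 measurement, so that the 50 tested genes are 49 separate measurements. Of the 31-base words of the Eif3j2 transcript 94.0% occur in Eif3j1, while 41.0% of those of Eif3j1 occur in Eif3j2. The reason for the equal counts was not tested. For 12 genes, Eif1, Eif2s2, Eif2s3x, Eif3e, Eif3h, Eif3j1, Eif3j2, Eif3m, Eif4a1, Eif4a3, Eif4a3l1 and Eif4ebp3, at least 30% of the 31-base words of the transcript also occur in other genes, and their levels are uncertain where such reads could be misplaced.

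By day 4, most of the genes had fallen and 4 had risen. For day 4 against day 0, 37 of the 50 tested genes were called lower, 4 were called higher and 9 were not called, with a median log2 fold change of -0.85. Over all 12381 tested genes in this comparison 71.8% were called, 36.4% lower and 35.5% higher, and their median was -0.02. Eif2s3y, Eif4a2, Eif5a2 and Eif4ebp2 were the 4 that rose, and for each the 2 libraries of day 4 lay above the 2 of day 0. Eif2s1, Eif6 and Eif5a fell the most.

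The greater part of the fall was present by day 2. For day 2 against day 0, 33 genes were called lower, 5 higher and 12 were not called, with a median of -0.72. Over all tested genes 62.5% were called, 31.5% lower and 31.0% higher, and the median was 0.01. Among the 37 genes lower at day 4, the median gene had made 75.6% of its log2 change by day 2. For day 4 against day 2, 11 genes were called lower, 1 higher and 38 were not called, with a median of -0.19, where 30.3% of all tested genes were called, 16.2% lower and 14.0% higher. This second count rests on few libraries. It was 1 in all without day 2 replicate 1, 6 without day 2 replicate 2 and 2 without day 4 replicate 2, and it was 22 without either library of day 0. When the libraries were scaled to total counts alone, the median of all genes for day 2 against day 0 moved to 0.21 and the calls over all genes to 5001 higher and 2881 lower, from 3841 and 3902, while the initiation factors gave 5 higher and 31 lower.

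**Figure D1:**
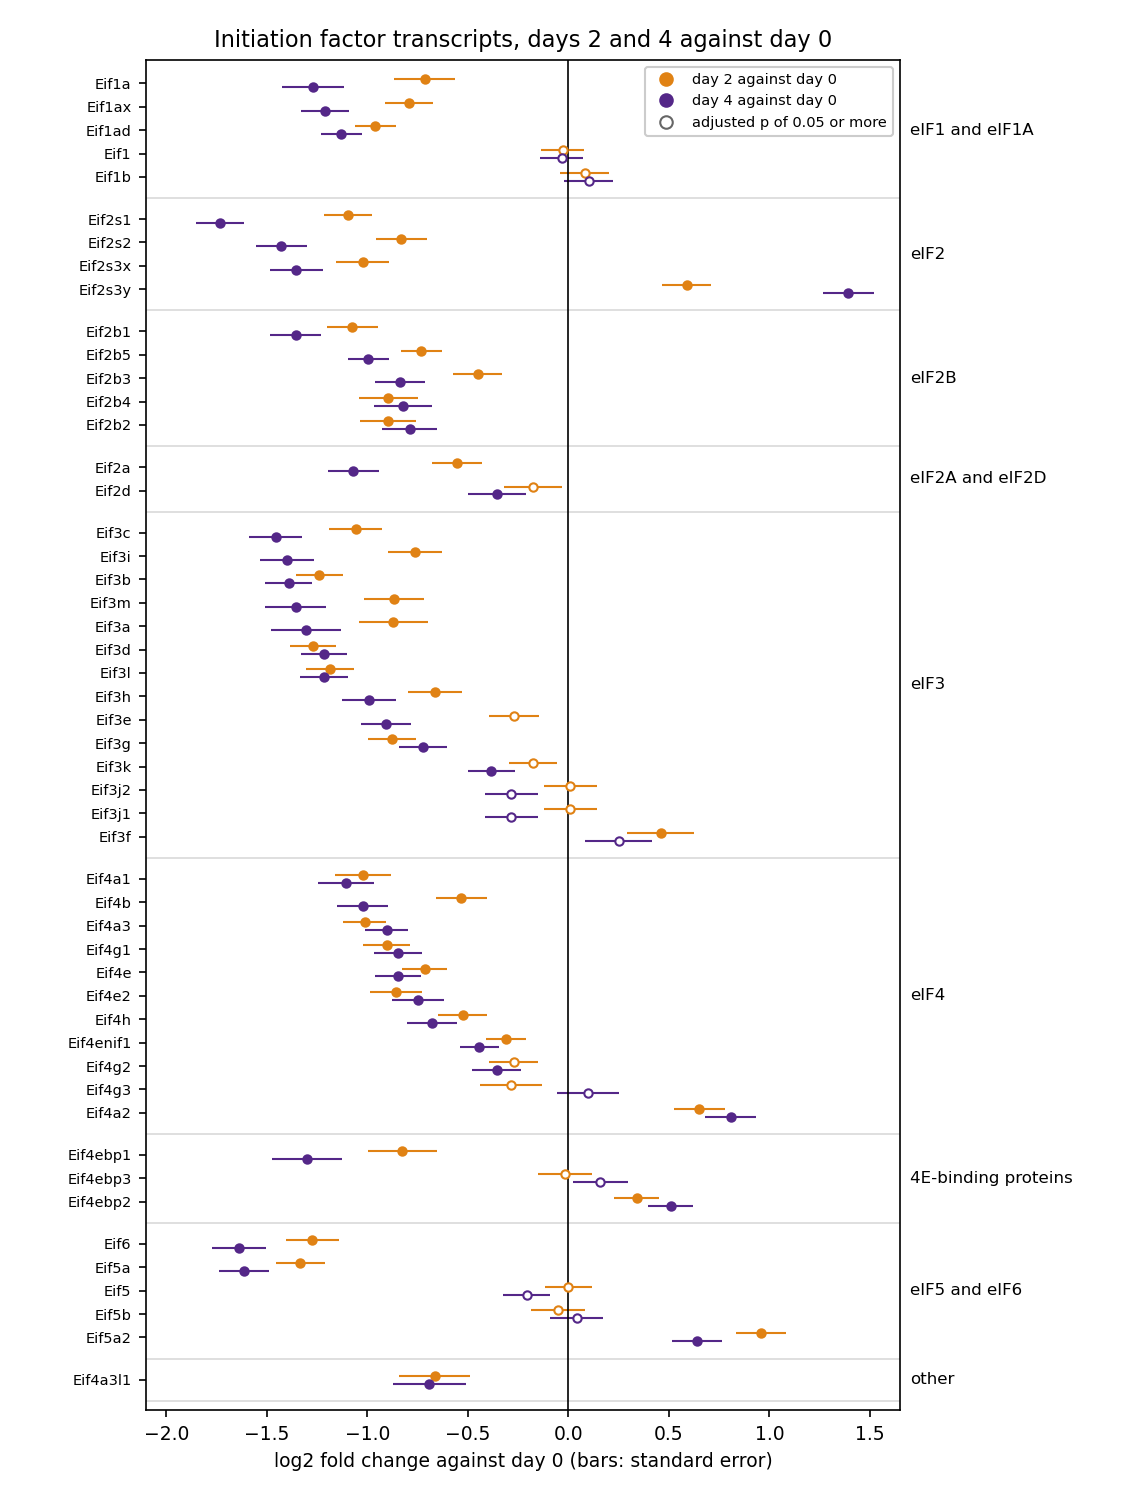
Log2 fold change with its standard error (horizontal axis) of the 50 tested initiation factor genes, in rows grouped by role, for day 2 (orange) and day 4 (purple) against day 0, with open points where the adjusted p was 0.05 or more. Most purple points lie left of 0, Eif2s1 farthest at -1.73, and Eif2s3y lies farthest to the right at 1.39.

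The promoters of the initiation factor genes were searched for 1 motif. The letters CACGTG, a palindrome that reads the same on both strands, form the E-box that MYC with MAX and the USF factors are known to bind, and genes of ribosome and protein synthesis are known for such sites. RefSeq promoters of GRCm38.p6, from 250 bases before to 50 bases after a start, were at hand for 40 of the 52 genes. The motif stood in 10 of these 40 (25.0%), in 11.7% of the 9680 tested genes with a promoter and in 8.09% of all 27025. The windows below are 30 bases long, written 5′ to 3′ on the strand of the gene, with the motif in capitals and the distance of its first base from the first transcribed base, and they belong to the cap-binding complex, to the eIF5A pair that moved in opposite directions, and to 2 genes that were not called at day 4.

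Eif4e, chr3:138527028-138527057 (+), motif at -228: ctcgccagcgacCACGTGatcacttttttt
Eif4e, chr3:138527192-138527221 (+), motif at -64: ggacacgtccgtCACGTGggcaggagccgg
Eif4g1, chr16:20672661-20672690 (+), motif at -54: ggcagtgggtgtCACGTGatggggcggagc
Eif4a1, chr11:69672595-69672624 (-), motif at -189: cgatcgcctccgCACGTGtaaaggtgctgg
Eif5a, chr11:69921443-69921472 (-), motif at -74: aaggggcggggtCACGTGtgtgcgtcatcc
Eif5a2, chr3:28781123-28781152 (+), motif at -142: actaatccgcagCACGTGgggttgccaggg
Eif5a2, chr3:28781148-28781177 (+), motif at -117: cagggcgagcttCACGTGacggggcgggac
Eif3f, chr7:108934335-108934364 (+), motif at -68: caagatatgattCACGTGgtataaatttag
Eif1b, chr9:120492570-120492599 (+), motif at -24: cgtgcggacggtCACGTGgcggcggcgcgc

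These windows lie wholly before the RefSeq start from which the distance is counted. For Eif4e, Eif5a and Eif5a2 the annotated gene also has a start farther upstream, so their windows lie inside the span of the gene. Eif4e, Eif4g1, Eif4a1 and Eif5a were lower at day 4, Eif5a2 was higher, and Eif3f and Eif1b were not called, so the motif stood in the promoter windows of genes of each kind. Eif3a, Eif3k and Eif4h, also lower at day 4, held the motif as well, but their windows are not printed. Further sites of Eif4g1 and Eif5a are not printed either. In the other pairs of related genes that moved in opposite directions, Eif2s3x, Eif2s3y and Eif4a2 had a promoter entry without the motif. Of the 10 genes with the motif, 7 were lower, 1 higher and 2 not called for day 4 against day 0, with a median log2 fold change of -0.76. Of the 30 without it, 22 were lower, 3 higher and 5 not called, with a median of -0.86. A start at a C followed by 4 pyrimidines, the kind of start at which messenger RNAs under mTORC1 control are known to begin, was found for 2 of the 40 genes, Eif2s3x and Eif3f, and for 3.05% of the tested genes. A match is a description of the letters only, and the 12 genes without a promoter entry were Eif1a, Eif2b3, Eif3e, Eif3h, Eif3i, Eif3j2, Eif4e1b, Eif4e3, Eif4ebp1, Eif4ebp3, Eif4g2 and Eif6.

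The subunits of eIF2 parted. Eif2s1 (NM_026114), which encodes the alpha subunit that the eIF2 kinases phosphorylate, was at 146 and 154 CPM at day 0, 77.0 and 63.4 CPM at day 2, and 47.1 and 43.2 CPM at day 4. No library of a later day reached those of an earlier one, and the gene was called lower at both steps. The change over the 4 days, -1.73 on the log2 scale (SE 0.12, edgeR adjusted p = 3.93e-07), was the largest fall among the 50 genes. Eif2s2, of the beta subunit, which contacts eIF5 and eIF2B, went from 227 and 214 CPM at day 0 to 135 and 114 CPM at day 2 and 89.0 and 75.0 CPM at day 4. It fell at both steps as well, by 1.43 on the log2 scale over the 4 days (SE 0.13, edgeR adjusted p = 2.26e-06). Of its 31-base words, 32.1% also occur in a pseudogene, so its level is uncertain where reads could not be told apart.

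The gamma subunit, which binds the initiator transfer RNA and GTP, has a gene on the X and a gene on the Y chromosome in mouse, and these moved in opposite directions. Eif2s3x (NM_012010, X:94188709-94212651) was at 185 and 244 CPM at day 0, 109 and 102 CPM at day 2, and 84.8 and 83.3 CPM at day 4. Both libraries of each later day lay below those of the day before, and the change over the 4 days was -1.35 on the log2 scale (SE 0.13, edgeR adjusted p = 4.7e-06). The step from day 2 to day 4 was not called (-0.33, SE 0.13, edgeR adjusted p = 0.0812), and the steps differed (edgeR adjusted p = 0.0433). Eif2s3y (NM_012011, Y:1010562-1049134) was at 102 and 92.3 CPM at day 0, 154 and 139 CPM at day 2, and 233 and 278 CPM at day 4. It was called higher at both steps and was the only initiation factor gene that was, where 8.33% of all tested genes were. Its change over the 4 days was 1.39 (SE 0.13, edgeR adjusted p = 2.39e-06), a fold of 2.62.

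Per transcript length, as TPM (counts over transcript length, scaled to the same total in each library), Eif2s3y made up 52.3% and 43.0% of the summed gamma subunit level at day 0, 73.7% and 72.9% at day 2, and 84.5% and 86.9% at day 4. The sum of both genes was 365 ± 15.5 TPM (SD, n = 2) at day 0, 421 ± 31.0 at day 2 and 553 ± 46.6 at day 4. On this scale both libraries of day 4 lay above both of day 0 for the gamma sum, in contrast to Eif2s1 and Eif2s2, and the ratio of Eif2s3y to Eif2s1 went from 1.30 and 1.11 at day 0 to 9.17 and 11.9 at day 4. In CPM the gamma sum lay below day 0 at day 2, and its libraries of day 4 and day 0 overlapped. The order of the days for this sum thus depends on the scale. Of the 31-base words of Eif2s3x, 36.9% are shared with other genes, mostly a pseudogene, whereas 0.221% of those of Eif2s3y are.

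**Figure D2:**
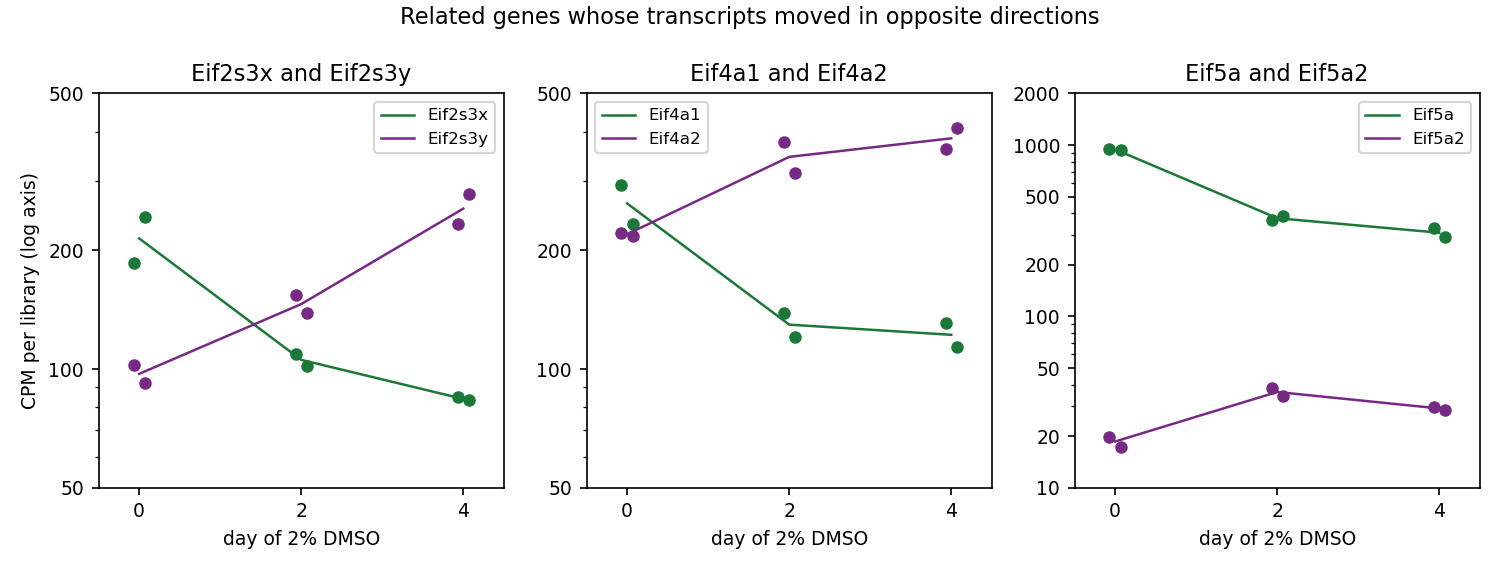
CPM (vertical, log axis) by day of DMSO (horizontal) for Eif2s3x and Eif2s3y, Eif4a1 and Eif4a2, and Eif5a and Eif5a2, with a point for each library and a line through the means of 2 libraries. In the panels of the gamma subunit and of eIF4A the lines cross between day 0 and day 2, whereas Eif5a stays above Eif5a2 on each day.

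The 5 subunit genes of eIF2B fell together. Against day 0, all 5 were called lower at day 2 and at day 4, where 31.5% and 36.4% of all tested genes were, with log2 fold changes at day 4 from -1.36 for Eif2b1 to -0.79 for Eif2b2 and a median of -0.84. Eif2b1, of the regulatory alpha subunit, was at 115 and 96.2 CPM at day 0, 51.2 and 49.3 CPM at day 2, and 45.1 and 37.6 CPM at day 4 (log2 fold change -1.36, SE 0.13, edgeR adjusted p = 3.3e-06). Eif2b5, of the epsilon subunit that catalyses the exchange, went from 149 and 138 CPM to 83.7 and 88.8 CPM and then to 72.0 and 71.7 CPM (-0.99, SE 0.10, edgeR adjusted p = 6.13e-06). For both genes the libraries of day 4 lay below those of day 2, but neither step from day 2 to day 4 was called. Eif2b3 was the one called at that step, with -0.38 (SE 0.12, edgeR adjusted p = 0.0374). It lost the call without day 2 replicate 1, without day 2 replicate 2 or without day 4 replicate 2. The call was also lost when the longest tested transcript stood for the gene. Summed over the 5 genes, eIF2B was at 433 ± 1.72 CPM (SD, n = 2) at day 0, 246 ± 4.14 at day 2 and 218 ± 5.35 at day 4.

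eIF2A and eIF2D can place an initiator transfer RNA without eIF2. Eif2a was at 66.5 and 70.2 CPM at day 0, 51.4 and 41.7 CPM at day 2, and 34.3 and 30.8 CPM at day 4, with no overlap between days. It was called lower at both steps, and over the 4 days by -1.07 (SE 0.13, edgeR adjusted p = 1.77e-05). Eif2d was at 53.5 and 75.1 CPM at day 0, 56.6 and 57.3 CPM at day 2, and 51.2 and 49.6 CPM at day 4, so its libraries of day 0 differ by more than either does from those of day 2. Its call for day 4 against day 0 (-0.35, SE 0.14, edgeR adjusted p = 0.0448) was lost without day 0 replicate 2, where the value was -0.10, and under 7 other alternatives.

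Among the genes named for eIF1 and eIF1A, 3 of 5 fell and 2 stayed uncalled for day 4 against day 0, beside 36.4% lower over all tested genes. Eif1a and Eif1ax encode forms of eIF1A, and Eif1ad is named for a domain like that of eIF1A. Eif1a was at 103 and 86.5 CPM at day 0, 62.4 and 53.1 CPM at day 2, and 45.2 and 33.6 CPM at day 4 (day 4 against day 0 -1.27, SE 0.15, edgeR adjusted p = 2.2e-05). Eif1ax was at 152 and 160 CPM, then 93.7 and 86.0 CPM, then 74.2 and 60.6 CPM (-1.21, SE 0.12, edgeR adjusted p = 4.96e-06). The ratio of Eif1a to Eif1ax in TPM stayed within 0.976 and 1.23 in the 6 libraries. Eif1ad fell by 1.13 on the log2 scale (SE 0.10, edgeR adjusted p = 2.46e-06). Eif1, which encodes the start codon gatekeeper eIF1, was at 90.1 and 78.0 CPM at day 0 and 82.3 and 81.9 CPM at day 4, and its relative Eif1b at 49.3 and 39.4 CPM and 47.1 and 47.9 CPM. For neither was a change detectable, with log2 fold changes of -0.03 (SE 0.11) and 0.10 (SE 0.12).

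Of the 14 eIF3 genes, 11 were called lower and none higher for day 4 against day 0, where 36.4% of all tested genes were lower. The group summed to 5422 and 5918 CPM at day 0, 3259 and 3226 CPM at day 2, and 2795 and 2580 CPM at day 4. The 11 changes ran from -1.46 for Eif3c to -0.38 for Eif3k. Eif3c, of a core subunit that contacts eIF1 and eIF5, was at 750 and 925 CPM at day 0, 407 and 398 CPM at day 2, and 316 and 295 CPM at day 4 (-1.46, SE 0.13, edgeR adjusted p = 2.65e-06). Eif3i, whose protein sits with those of Eif3b and Eif3g in 1 module of the complex, was at 395 and 309 CPM, then 211 and 204 CPM, then 139 and 128 CPM (-1.40, SE 0.13, edgeR adjusted p = 3.69e-06). In both genes each day lay wholly below the day before.

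The eIF3 genes differed in when they fell. Eif3d, whose protein can itself bind the cap of some messenger RNAs, was at 494 and 440 CPM at day 0, 190 and 196 CPM at day 2, and 199 and 203 CPM at day 4. Its whole fall, with -1.27 (SE 0.11, edgeR adjusted p = 4.88e-06), came in the first step, and its steps differed by 1.33 on the log2 scale (SE 0.20, edgeR adjusted p of the difference = 0.00105). Eif3b, Eif3g and Eif3l also had steps that differed, each with the stronger fall in the first. Eif3e showed the other order in its values, at 164 and 172 CPM at day 0, 153 and 126 CPM at day 2, and 95.4 and 84.0 CPM at day 4. Only its second step was called (-0.64, SE 0.12, edgeR adjusted p = 0.00368), but the difference between its steps was not (edgeR adjusted p = 0.214), and the call was lost without day 2 replicate 1 or without day 4 replicate 2.

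Eif3f, Eif3k and Eif3j stood apart from the other subunits in size of change. Eif3f, of a subunit with an MPN domain, was at 263 and 173 CPM at day 0, 302 and 298 CPM at day 2, and 266 and 253 CPM at day 4. It was the single eIF3 gene called higher at day 2 (0.46, SE 0.17, edgeR adjusted p = 0.0318), and without day 0 replicate 2 its value was 0.18 and the call was lost. It was not called at day 4 (0.25, SE 0.17), although without day 0 replicate 1 it was, at 0.58. Eif3h, whose MPN domain pairs with that of Eif3f in the complex, went from 320 and 421 CPM to 187 and 186 CPM, and the TPM ratio of Eif3f to Eif3h went from 0.423 and 0.212 at day 0 to 0.734 and 0.702 at day 4. Eif3k, of a peripheral subunit, was at 265 and 237 CPM at day 0 and 199 and 185 CPM at day 4 (-0.38, SE 0.12, edgeR adjusted p = 0.0128), a call lost without day 4 replicate 2 and with libraries scaled to total counts. Eif3j1 and Eif3j2, measured as 1, were at 13.4 and 13.6 CPM at day 0 and at 11.7 and 10.5 CPM at day 4 (-0.28, SE 0.13, edgeR adjusted p = 0.0744).

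**Figure D3:**
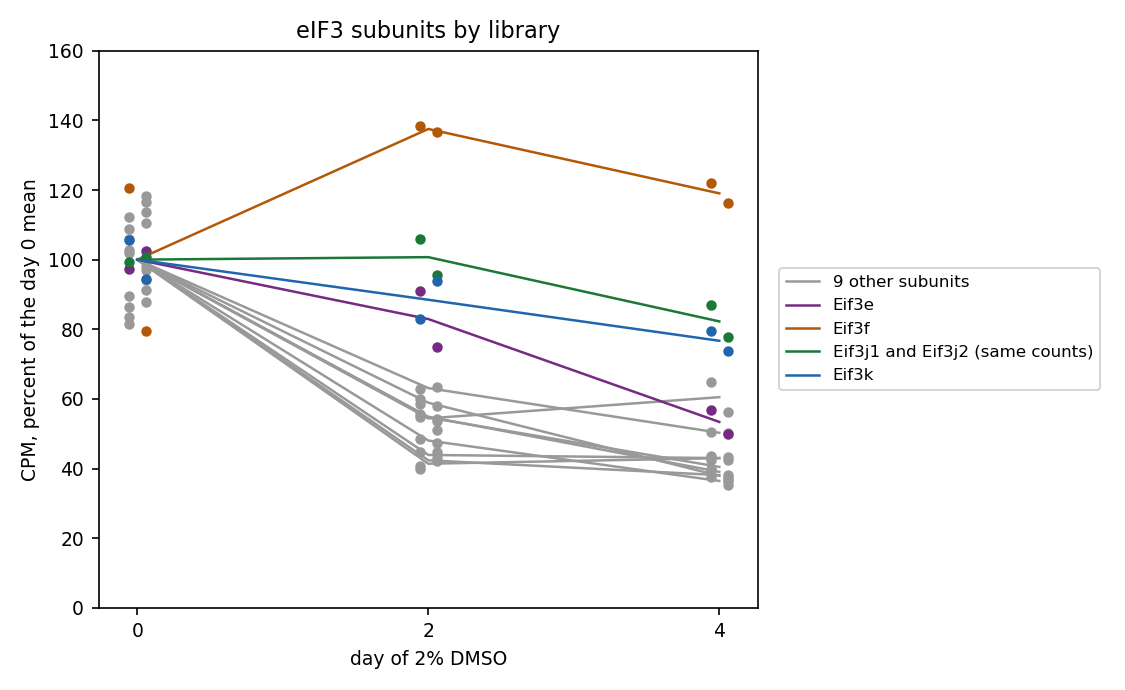
CPM as a percent of each gene's day 0 mean (vertical) by day of DMSO (horizontal) for the eIF3 genes, with a point for each library and a line through the means. At day 4 the 9 grey subunits lie between 36.4% and 60.5%, Eif3e at 53.4%, Eif3k at 76.7%, the shared measurement of Eif3j1 and Eif3j2 at 82.3% and Eif3f at 119%.

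In the eIF4 group, 9 of the 11 tested genes were called lower for day 4 against day 0, 1 higher and 1 not, beside 36.4% lower and 35.5% higher over all tested genes. The cap-binding protein gene Eif4e (NM_007917), whose promoter holds the E-box windows printed above, was at 108 and 111 CPM at day 0, 73.1 and 60.3 CPM at day 2, and 61.7 and 60.0 CPM at day 4. It had fallen by day 2 and the libraries of days 2 and 4 overlap (day 4 against day 0 -0.85, SE 0.11, edgeR adjusted p = 4.72e-05). Eif4e2, which encodes a cap-binding relative that does not bind eIF4G well and represses translation, fell in step, from 67.9 and 88.9 CPM to 46.9 and 46.5 CPM (-0.75, SE 0.13, edgeR adjusted p = 0.000315). The TPM ratio of Eif4e2 to Eif4e was 3.19 ± 0.557 (SD, n = 2) at day 0 and 3.42 ± 0.0486 at day 4, so it differed by less than the spread at day 0.

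The scaffold genes did not move alike. Eif4g1, of the main eIF4G, was at 919 and 830 CPM at day 0, 467 and 467 CPM at day 2, and 480 and 492 CPM at day 4 (-0.85, SE 0.12, edgeR adjusted p = 6.53e-05). Its steps differed (edgeR adjusted p = 0.00684), and its second step was 0.06 (SE 0.12). Eif4g2, whose protein lacks the part that binds eIF4E and serves initiation without the cap, was at 893 and 953 CPM at day 0, 770 and 759 CPM at day 2, and 684 and 758 CPM at day 4 (-0.36, SE 0.12, edgeR adjusted p = 0.0215). That call was lost without day 2 replicate 1, without day 2 replicate 2 or without day 4 replicate 1, where the values were -0.36, -0.36 and -0.28, as well as with only the 2 days fitted and with libraries scaled to total counts. Eif4g3, of a second full-length eIF4G, was at 116 and 166 CPM at day 0, 113 and 118 CPM at day 2, and 159 and 142 CPM at day 4 (0.10, SE 0.15, edgeR adjusted p = 0.583), and it was called higher without day 0 replicate 2. On the TPM scale Eif4g2 stood at 0.722 ± 0.0855 (SD, n = 2) of Eif4g1 at day 0 and at 1.01 ± 0.0548 at day 4, and Eif4g3 at 0.145 ± 0.0465 and 0.275 ± 0.0265.

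The 2 genes of the eIF4A helicase changed places. Eif4a1 (NM_001159375) was at 293 and 234 CPM at day 0, 139 and 120 CPM at day 2, and 131 and 113 CPM at day 4, and Eif4a2 (NM_001123038) at 222 and 218 CPM, then 376 and 315 CPM, then 362 and 408 CPM. Per transcript length too, Eif4a1 lay above Eif4a2 in both libraries of day 0 and below it in the 4 later ones. For day 4 against day 0, Eif4a1 fell by 1.11 on the log2 scale (SE 0.14, edgeR adjusted p = 2.97e-05), while Eif4a2 rose by 0.81 (SE 0.13, edgeR adjusted p = 0.000157). In TPM the ratio of Eif4a2 to Eif4a1 was 0.497 and 0.611 at day 0, 1.77 and 1.71 at day 2, and 1.81 and 2.36 at day 4. Their summed level was 751 ± 98.4 TPM (SD, n = 2) at day 0, 778 ± 96.4 at day 2 and 720 ± 3.21 at day 4, which differ by less than the spread at day 0. A limit is that 67.5% of the 31-base words of Eif4a1 occur in other genes, mostly pseudogenes, against 16.9% for Eif4a2, so the level of Eif4a1 is uncertain.

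Eif4a3, whose protein marks spliced junctions and not the cap, fell from 81.5 and 91.1 CPM at day 0 to 41.3 and 44.2 CPM at day 2 and was at 45.6 and 46.8 CPM at day 4 (-0.90, SE 0.11, edgeR adjusted p = 1.77e-05). Its steps differed as well (edgeR adjusted p = 0.00184). Eif4a3l1, a low copy related to it that shares 61.8% of its words with other genes, was at 7.62 and 5.80 CPM at day 0 and 4.35 and 3.96 CPM at day 4 (-0.69, SE 0.18, edgeR adjusted p = 0.00488). The helicase cofactor Eif4b was at 1139 and 1009 CPM at day 0, 761 and 724 CPM at day 2, and 550 and 506 CPM at day 4 (-1.02, SE 0.13, edgeR adjusted p = 2.54e-05). It fell at both steps, the only eIF4 gene called at the second, a call lost without day 2 replicate 1, without day 2 replicate 2 or without day 4 replicate 2. The related cofactor Eif4h fell by 0.68 on the log2 scale (SE 0.12, edgeR adjusted p = 0.000434). Eif4enif1, of a transporter that carries eIF4E to the nucleus and to P-bodies, fell by 0.44 (SE 0.10, edgeR adjusted p = 0.00192).

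The 3 genes of the 4E-binding proteins each took a course of their own. Eif4ebp1 (NM_007918) was at 84.1 and 62.3 CPM at day 0, 41.0 and 41.6 CPM at day 2, and 34.6 and 24.9 CPM at day 4. It fell by 0.83 on the log2 scale in the first 2 days (SE 0.17, edgeR adjusted p = 0.00149) and stood at -1.30 at day 4 (SE 0.17, edgeR adjusted p = 4.36e-05). Its second step (-0.47, SE 0.17) just missed the threshold, with an edgeR adjusted p of 0.0567, and was called by DESeq2 and under several other alternatives. Eif4ebp2 (NM_010124) was at 86.5 and 73.1 CPM at day 0, 99.7 and 102 CPM at day 2, and 112 and 115 CPM at day 4, so each day lay above the day before. Its rise over the 4 days was 0.51 (SE 0.11, edgeR adjusted p = 0.00159), and its call at day 2 (0.34, SE 0.11, edgeR adjusted p = 0.0194) was lost without day 0 replicate 2, without day 2 replicate 1 or without day 2 replicate 2. Eif4ebp3 was at 9.66 and 9.05 CPM at day 0 and 10.3 and 10.6 CPM at day 4 (0.16, SE 0.14, edgeR adjusted p = 0.313), and shares 66.4% of its words with another annotated gene.

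Set against the cap-binding protein in the same library, the 4E-BP transcripts as a sum stood higher at days 2 and 4. In TPM, Eif4ebp2 stood at 2.80 and 2.32 times Eif4e at day 0, 4.79 and 5.95 times at day 2, and 6.36 and 6.73 times at day 4. Eif4ebp1 was at 1.94 and 1.41 times Eif4e at day 0 and 1.40 and 1.04 times at day 4, where the library ranges nearly meet. The sum of the 3 genes over Eif4e was 5.34 and 4.28 at day 0, 7.08 and 8.65 at day 2, and 8.87 and 8.95 at day 4, and no library of day 0 reached those of later days. The sum itself was 162 ± 25.4 CPM (SD, n = 2) at day 0, 152 ± 1.62 at day 2 and 154 ± 4.26 at day 4, a difference smaller than the spread at day 0. In TPM it was 345 ± 57.3, 404 ± 0.295 and 371 ± 12.5, so the order of the days depends on the scale. These are transcript levels, and phosphorylation of the proteins was not measured.

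**Figure D4:**
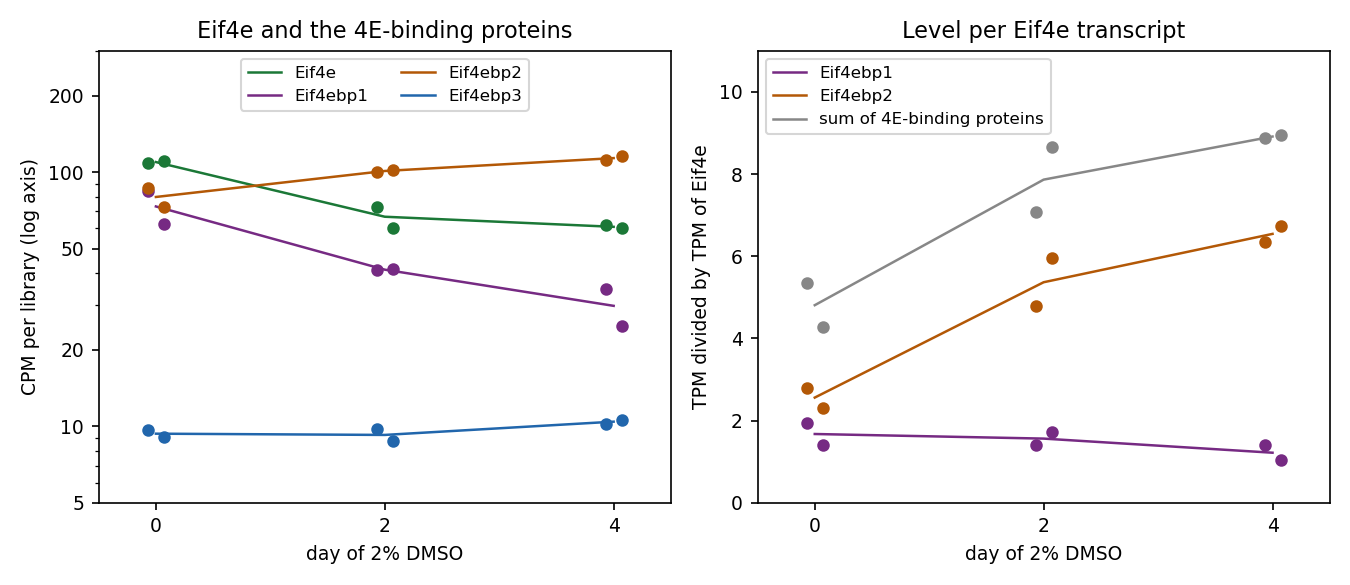
Left, CPM (vertical, log axis) of Eif4e and the 3 genes of the 4E-binding proteins by day of DMSO, with a point for each library and a line through the means of 2 libraries. Right, TPM of Eif4ebp1, Eif4ebp2 and the sum of the 3 genes divided by the TPM of Eif4e in the same library, where the sum goes from a mean of 4.81 at day 0 to 8.91 at day 4.

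Of the 5 genes of the last steps, 2 fell, 1 rose and 2 were not called for day 4 against day 0, where 36.4% of all tested genes were lower and 35.5% higher. Eif5a (NM_001166589), whose hypusine-bearing protein helps ribosomes over difficult stretches and in termination, was at 954 and 933 CPM at day 0, 363 and 386 CPM at day 2, and 327 and 290 CPM at day 4. Most of its change of -1.61 (SE 0.12, edgeR adjusted p = 7.1e-07) came in the first step, and its steps differed (edgeR adjusted p = 0.0048). Its relative Eif5a2 (NM_177586), with an E-box in the promoter like Eif5a, was at 19.9 and 17.4 CPM at day 0, 38.3 and 34.2 CPM at day 2, and 29.7 and 28.4 CPM at day 4. It rose by 0.96 at the first step (SE 0.12, edgeR adjusted p = 6.24e-05), the largest rise of the 50 genes there, and was still 0.64 above day 0 at day 4 (SE 0.12, edgeR adjusted p = 0.000712). Its second step, -0.32 (SE 0.12), was not called (edgeR adjusted p = 0.0694), but the steps differed (edgeR adjusted p = 0.00155). Eif5a2 remained the minor form, with TPM ratios to Eif5a of 0.00596 and 0.00533 at day 0 and 0.0260 and 0.0280 at day 4.

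Eif6, which keeps the large ribosomal subunit from joining too early and serves its assembly, was at 105 and 139 CPM at day 0, 50.2 and 50.9 CPM at day 2, and 39.4 and 39.0 CPM at day 4 (-1.64, SE 0.13, edgeR adjusted p = 1.19e-06). In contrast, Eif5, of the factor that makes eIF2 hydrolyse its GTP, was at 214 and 207 CPM at day 0 and 197 and 168 CPM at day 4 (-0.21, SE 0.12, edgeR adjusted p = 0.133). Eif5b, of the GTPase that joins the subunits, was at 167 and 219 CPM at day 0 and 201 and 196 CPM at day 4 (0.04, SE 0.13, edgeR adjusted p = 0.79).

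In order of level per transcript length, Eif5a led at day 0 with 2146 ± 85.2 TPM (SD, n = 2), followed by Eif3g with 1548 ± 101, Eif3k with 1060 ± 110 and Eif3i with 1028 ± 202, of which the last 2 do not differ beyond their spread. At day 4 the order at the top was Eif3g with 979 ± 117 TPM, Eif3k with 849 ± 61.2 and Eif5a with 733 ± 76.9, where neighbours differ by little more than their spread or less. Eif4e, at 71.7 ± 0.662 TPM on day 0 and 41.7 ± 1.67 on day 4, stood below Eif4g1, at 526 ± 50.7 and 305 ± 0.622. The ratio of Eif4g1 to Eif4e was 7.33 ± 0.640 on day 0 and 7.32 ± 0.278 on day 4. The SDs cover the libraries and not the transcript lengths, on which these orders and ratios also rest.

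The steps of 17 of the 50 genes (34.0%) differed from each other, near the 30.0% over all tested genes. In 16 of the 17 the second step was the more positive, and the exception was Eif5a2, while over all tested genes this held for 1628 of the 3719 whose steps differed. This difference subtracts the first step, so its direction partly repeats the calls at day 2, 33 lower and 5 higher. The 17 included 3 of the 5 eIF2B genes, 4 of the 14 eIF3 genes and 5 of the 11 tested eIF4 genes. The count was 1 without day 2 replicate 1, 4 without day 2 replicate 2 and 26 without day 0 replicate 1. Conversely, 10 genes were called lower at both steps, against 9.05% of all tested genes, namely Eif1a, Eif1ax, Eif2a, Eif2b3, Eif2s1, Eif2s2, Eif3c, Eif3i, Eif3m and Eif4b. At the second step these 10 lost the call without day 2 replicate 1, and at the first step Eif2a, Eif2b3 and Eif4b lost it without day 2 replicate 2. Eif2b3 also lost its call at the second step when its longest tested transcript was used.

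The partners and regulators of initiation were followed in 48 listed genes, of which 46 were tested. For day 4 against day 0, 15 were called higher, 20 lower and 11 not, which is near the shares over all tested genes, 35.5% higher and 36.4% lower of 71.8% called. All 4 eIF2 kinases were called higher. Eif2ak1, of the heme-regulated kinase, was at 51.0 and 43.1 CPM at day 0, 77.5 and 80.6 CPM at day 2, and 110 and 127 CPM at day 4 (1.33, SE 0.12, edgeR adjusted p = 2.37e-06), Eif2ak2 was at 0.79 on the log2 scale, and Eif2ak3 and Eif2ak4 at 0.32 and 0.29. The phosphatase partners of eIF2 alpha, Ppp1r15a and Ppp1r15b, rose by 1.09 (SE 0.12, edgeR adjusted p = 7.14e-06) and 0.85 (SE 0.14, edgeR adjusted p = 0.000269), whereas the other 5 helpers of start codon choice, subunit joining and recycling fell. Among those, Denr, whose protein works with that of Mcts1 in reinitiation, fell by 1.29 on the log2 scale (SE 0.11, edgeR adjusted p = 1.63e-06), and Ddx3x, a helicase for structured leaders, by 1.13 (SE 0.12, edgeR adjusted p = 6.71e-06).

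Among 11 partners at the cap and the poly(A) tail, 4 rose and 3 fell, near the 35.5% and 36.4% over all tested genes. Pdcd4, an inhibitor that holds eIF4A, was at 42.9 and 48.1 CPM at day 0, 261 and 250 CPM at day 2, and 237 and 220 CPM at day 4 (2.33, SE 0.12, edgeR adjusted p = 4.65e-08). Mknk2, of a kinase that phosphorylates eIF4E on the eIF4G scaffold, was at 166 and 166 CPM, then 488 and 585 CPM, then 679 and 814 CPM (2.17, SE 0.14, edgeR adjusted p = 2.62e-07), and Mknk1 rose by 1.04 (SE 0.12, edgeR adjusted p = 1.06e-05). Both day 4 libraries of these genes lay well above day 0, in contrast to Eif4e and Eif4a1 themselves. The poly(A)-binding protein gene Pabpc1 was at 2486 and 2759 CPM at day 0 and 2391 and 2187 CPM at day 4 and was not called (-0.20, SE 0.14, edgeR adjusted p = 0.222). The list of mTORC1, the kinase complex that phosphorylates the 4E-BPs, also holds its inhibitors, its activator Rheb and the S6 kinases. Of the 10 genes on it 5 rose and 2 fell, beside 35.5% and 36.4% over all tested genes. Rptor (0.53), Tsc2 (0.50) and Tsc1 (0.27), the last 2 of upstream inhibitors, were called higher, and Rheb (-0.64) lower. Rps6kb2, of an S6 kinase, stood at 1.36 (SE 0.13, edgeR adjusted p = 4.6e-06), Deptor, of an mTOR inhibitor, at 1.11 (SE 0.20, edgeR adjusted p = 0.000425) and Akt1s1, of another inhibitor, at -0.97 (SE 0.12, edgeR adjusted p = 3.03e-05), while Mtor itself was not called (0.22, SE 0.11, edgeR adjusted p = 0.0784).

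The enzymes that make the hypusine of eIF5A fell along with Eif5a. Dohh went from 110 and 101 CPM at day 0 to 39.3 and 40.4 CPM at day 2 and 29.6 and 28.3 CPM at day 4 (-1.86, SE 0.11, edgeR adjusted p = 1.12e-07), and Dhps from 25.9 and 33.7 CPM to 9.41 and 10.5 CPM and then to 13.1 and 13.5 CPM (-1.17, SE 0.15, edgeR adjusted p = 2.94e-05). Of the 8 tested elongation genes 5 fell and none rose, beside 36.4% lower and 35.5% higher over all tested genes. Eef1e1, whose protein is best known as part of the aminoacyl-tRNA synthetase complex, fell by 1.99 (SE 0.19, edgeR adjusted p = 3.55e-06) and Eef1d, of an exchange factor subunit, by 1.69 (SE 0.11, edgeR adjusted p = 2.02e-07), while Eef1a1 and Eef2, the abundant elongation factors, were not called (-0.23, SE 0.19, and -0.02, SE 0.15). Both tested termination genes were lower, Etf1 at -1.48 on the log2 scale (SE 0.11, edgeR adjusted p = 8.17e-07) and Gspt1 at -1.32 (SE 0.11, edgeR adjusted p = 1.45e-06). Of the mitochondrial initiation factors, Mtif2 fell by 0.37 (SE 0.11, edgeR adjusted p = 0.0101) and Mtif3 was not called (0.31, SE 0.14, edgeR adjusted p = 0.0649). Eef1a2 and Gspt2 passed no filter on low counts and were not tested.

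**Figure D5:**
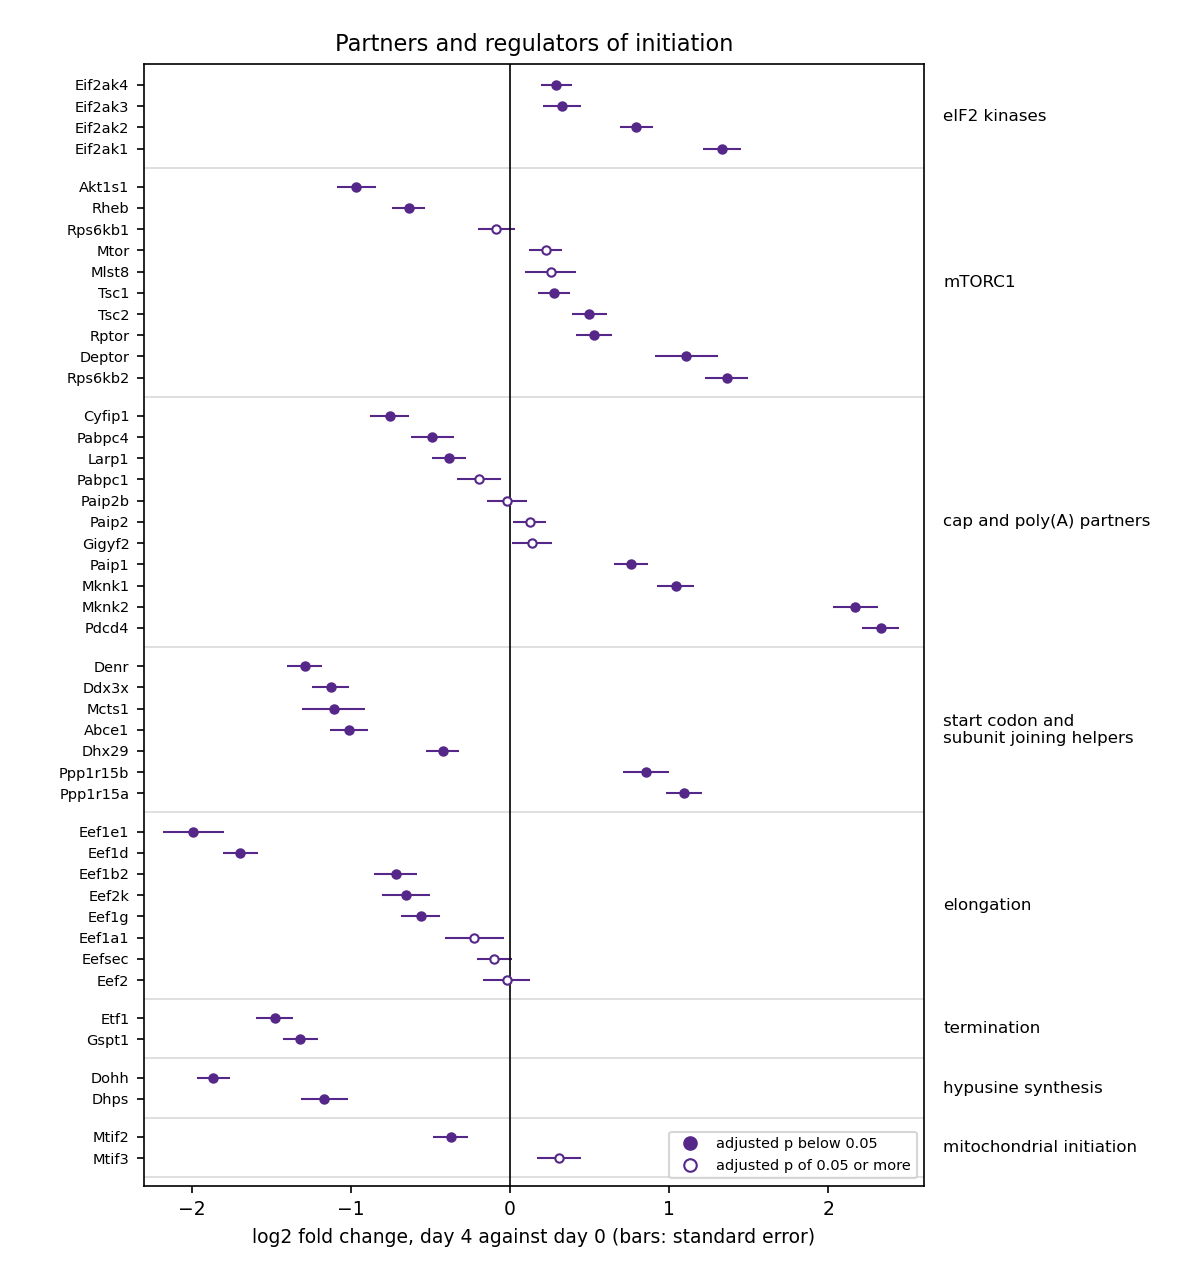
Log2 fold change of day 4 against day 0 with its standard error (horizontal axis) for the 46 tested partners and regulators, in rows grouped by role, with open points where the adjusted p was 0.05 or more. The 4 eIF2 kinases lie right of 0 with Eif2ak1 at 1.33, and the 2 termination genes and the 2 enzymes of hypusine synthesis lie left of -1.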

How the data were processed

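Reads were cleared of adapters (cutadapt) and placed on mm10 (TopHat) by the authors. The deposited values are raw counts per RefSeq transcript and library, without normalization. HTSeq is in the submitters' processing notes, and its options and the annotation release are not given in the sources used here. Reads on no feature were left out. Per library they came to 50.5% to 58.4% of the sum of these reads and the transcript counts. That sum adds the transcripts of a gene separately and omits other uncounted reads, so this is not a percent of all reads. Of 16 transcripts lying almost wholly within exons of an opposite-strand gene, 12 had under 5% of that gene's read density, so counting by strand was assumed. RefSeq gave symbols for 32199 of 32654 transcripts, and GENCODE for 187.

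All 6 libraries were fitted in edgeR 4.0.16 (R 4.3.3, TMM factors, filterByExpr by day, quasi-likelihood tests). The fit was also run on simulated counts. These left out the extra spread that the quasi-likelihood test estimates and changed few transcripts, so they do not show how it performs on these data. Alternatives were DESeq2 1.42.0 and other scalings, filters, transcripts and library sets. TPM uses no TMM factors, and its lengths are those of the longest GENCODE transcript linked to the counted RefSeq transcript. Full values are given for the eIF2 subunits, the eIF4E, eIF4A and eIF4G genes, the 4E-BPs, and the largest called changes of other groups and lists. Other genes given with values (such as Eif3d to Eif3f, Pabpc1 and Mtor) were added after their values were seen. Members and lists were chosen with earlier results of these data known.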

Additional observations from a re-analysis of the deposited data

How the results depend on the processing

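For day 4 against day 0, 38 of the 41 called initiation factor genes kept the call and direction under each alternative fit and each left-out library, and Eif2d, Eif3k and Eif4g2 did not. For day 2 against day 0, 30 of 38 did, and for day 4 against day 2, 1 of 12, Eif2s3y. No called gene reversed. With total counts alone, the median log2 fold changes of the genes were -0.52 (day 2 against day 0), -0.27 (day 4 against day 2) and -0.73 (day 4 against day 0), and 20 genes were called for day 4 against day 2. That comparison gave 22 calls when only its 4 libraries were fitted, 5 with a required log2 change of 0.58, 16 with DESeq2 and 18 without a filter on low counts. With the required size, 18 instead of 28 listed partners were called for day 2 against day 0, and 7 instead of 19 for day 4 against day 2. When 1 library was left out at a time, so that a lone library is assumed to vary like the others, called genes ranged from 31 to 43 (day 2 against day 0), 1 to 22 (day 4 against day 2) and 39 to 43 (day 4 against day 0). The medians ranged from -0.75 to -0.59, from -0.24 to -0.16 and from -0.94 to -0.85. Genes whose steps differ ranged from 1 to 26, and called partners from 22 to 32, 3 to 25 and 29 to 38. The cause of these shifts was not tested. Libraries with the same replicate number did not deviate together (r of 0.0341, 0.0298 and 0.117 across transcripts), and with the replicate number as a block 38, 13 and 40 genes were called and the steps of 16 differed. Under this block Eif2d lost its call for day 4 against day 0 (edgeR adjusted p = 0.0506) and Eif4ebp1 gained one for day 4 against day 2 (edgeR adjusted p = 0.0252). With 2 libraries per day, small changes could escape detection.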
